A study of Mus musculus with 12 samples.

Results

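The EGF receptor family and its ligands were followed through 12 mouse tumours as 10 genes, taken by name from the 54446 gene identifiers counted. They comprised 3 receptors, Egfr, Erbb2 and Erbb3, and 7 ligands, Areg, Ereg, Hbegf, Tgfa, Btc, Epgn and Nrg1. All 10 had enough counts to be among the 16833 genes tested. The tumours were grown from Sq-1979, a mouse cell line whose tissue the labels give as squamous cell carcinoma of the head and neck, implanted with Matrigel beneath the skin of male C3H/HeN mice aged 6 weeks. The 4 groups of 3 tumours received the vehicle control, a rat anti-PD1 antibody, SN-38, or anti-PD1 and SN-38 together, here called the combination. PD1 is an inhibitory receptor of T cells, and SN-38 is the active metabolite of irinotecan, an inhibitor of topoisomerase I. By its title, the series asks whether SN-38 improves the efficacy of anti-PD1. All groups share the same line, strain and site, so the tumours model 1 cell line outside its tissue of origin. The sources used here give neither doses nor times of treatment.

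The receptors are tyrosine kinases of the cell surface that pair with each other when a ligand binds. EGFR binds amphiregulin, epiregulin, HB-EGF, TGF-alpha, betacellulin and epigen, while ERBB3 binds neuregulins, has little kinase activity of its own and signals through its partners. ERBB2 has no known ligand of its own and acts as the preferred partner of the others. The ligands are made as membrane-bound precursors that proteases cut free, and the active receptors feed the RAS, MAP kinase and PI3 kinase pathways. In squamous epithelium EGFR drives growth of the basal layer, and the receptor is a drug target in head and neck cancer.

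Ligand genes lie close to each other on chromosome 5, where Epgn (GRCm38, 91027464 to 91035215), Ereg (91074622 to 91093646) and Areg (91139599 to 91148432) lie on the plus strand and Btc (91357261 to 91402994) on the minus strand. Egfr (16752203 to 16918158) and Erbb2 (98412470 to 98437716) are on the plus strand of chromosome 11. Erbb3 (128567523 to 128589652) is on the minus strand of chromosome 10. Tgfa (86195223 to 86275719) is on the plus strand of chromosome 6, and Nrg1 (31814551 to 32884029) is on the minus strand of chromosome 8. Hbegf was left out of the promoter search, and no RefSeq (GRCm38.p6) window was found for Erbb3, Ereg and Nrg1. That left windows for 6 of the 10 genes. The bases that precede the gene start are shown for 4 of them. These set 2 neighbouring ligand genes of low level beside Egfr, the receptor with the highest mean level, and Tgfa, its ligand with the highest mean level. They run 5′ to 3′ on the gene's own strand. Capitals mark the searched motifs that were found, TATAAA (the TATA box), GGGCGG (a GC box), TGACGTCA (the cyclic AMP response element, CRE) and its shorter form TGACG, each searched on both strands.
Areg, chr5:91139349-91139598, plus strand: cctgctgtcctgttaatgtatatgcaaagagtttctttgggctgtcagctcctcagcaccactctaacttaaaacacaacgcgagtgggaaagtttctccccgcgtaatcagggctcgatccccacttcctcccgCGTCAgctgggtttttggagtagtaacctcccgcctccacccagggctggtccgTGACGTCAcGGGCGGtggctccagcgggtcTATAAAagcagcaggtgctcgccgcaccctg
Epgn, chr5:91027267-91027463, plus strand: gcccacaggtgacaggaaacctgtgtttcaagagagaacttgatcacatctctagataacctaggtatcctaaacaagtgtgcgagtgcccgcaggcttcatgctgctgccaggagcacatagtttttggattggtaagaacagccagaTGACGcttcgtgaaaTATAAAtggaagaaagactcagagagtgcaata
Egfr, chr11:16751953-16752202, plus strand: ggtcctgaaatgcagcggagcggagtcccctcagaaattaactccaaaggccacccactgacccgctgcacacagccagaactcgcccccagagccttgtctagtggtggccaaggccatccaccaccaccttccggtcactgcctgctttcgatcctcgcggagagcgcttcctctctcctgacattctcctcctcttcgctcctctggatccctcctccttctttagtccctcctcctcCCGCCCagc
Tgfa, chr6:86194972-86195221, plus strand: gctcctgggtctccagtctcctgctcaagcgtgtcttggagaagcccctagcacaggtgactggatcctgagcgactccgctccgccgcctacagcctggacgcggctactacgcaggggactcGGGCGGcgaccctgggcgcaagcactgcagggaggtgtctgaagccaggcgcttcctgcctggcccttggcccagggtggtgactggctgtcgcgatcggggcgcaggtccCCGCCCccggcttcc

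The Areg window held a TATA box that begins 31 bases before the start, a GC box 52 bases before it and a whole CRE 61 bases before it. A separate TGACG lay on the minus strand 115 bases before the start, and the other TGACG matches of Areg lay inside the CRE. The Epgn window held TATAAA and TGACG, 86 and 101 bases before the start given by RefSeq. The 197 bases shown for Epgn stop before the earlier start of the GENCODE annotation. The Egfr window had a GC box on the minus strand, 9 bases before the start, and no TATAAA. Tgfa had GC boxes 126 bases before the start and, on the minus strand, 15 bases before it. Over 32851 promoter windows of 250 bases, TATAAA was in 12.4%, GGGCGG in 32.7%, TGACGTCA in 1.55% and TGACG in 17.8%. The AP-1 letters TGANTCA were in 6.75% of all windows and in none of the 6 family windows searched, which leave out Hbegf. These matches describe letters and were not measured as bound sites. The GC content was 57.2% for Areg, 45.7% for Epgn, 60.8% for Egfr and 69.2% for Tgfa, against a median of 52.4% over all windows.

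Total counts ran from 21088288 to 28512141 per tumour. No label states that each tumour came from its own mouse, so the p-values reflect variation among these tumours, which may be technical in part. Squamous basal markers were high in every tumour, with all 12 of the list tested, a summed level of 10620 to 19900 CPM (counts scaled to library size) and Krt5, a keratin of basal squamous cells, at a mean of 6365 CPM. Tumour 2 of the combination stood apart. It had the lowest basal squamous sum (10620 CPM, against 13910 to 19900 CPM in the others), the lowest differentiated squamous sum (96.4 against 133.9 to 214.4 CPM), and the highest endothelial sum (185.1 against 115.5 to 159.4 CPM). Its fibroblast sum, 6513 CPM, was close to the 6539 CPM of anti-PD1 tumour 1, while the other 10 tumours were higher. The main results that lean on it are also given without it. In bulk RNA, fewer cells of a type and less RNA per cell cannot be told apart.

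Levels of the family spanned a wide range, with 2 receptors far above every ligand. Per kilobase of exonic length, Egfr had a mean level of 32.2 ± 3.69 CPM per kb (SD over 12 tumours) and Erbb2, the partner receptor, 30.2 ± 2.28 CPM per kb. Their ranges overlapped, at 26.9 to 39.5 and 25.2 to 33.3 CPM per kb. Erbb3 followed at 10.7 ± 2.66 CPM per kb, below Erbb2 in every tumour. Among ligands, Tgfa (6.19 ± 1.32 CPM per kb) and Nrg1 (6.08 ± 2.16 CPM per kb) were level with each other within their spread. Hbegf came next at 1.54 ± 0.70 CPM per kb, with no tumour reaching the lowest Nrg1 value of 3.48 CPM per kb. Areg (0.78 ± 0.45), Epgn (0.62 ± 0.22), Ereg (0.37 ± 0.15) and Btc (0.25 ± 0.13 CPM per kb) formed a low tail in which neighbouring ranges overlapped. The counts behind these low values were few, from 2 to 60 reads per tumour for Areg, 24 to 69 for Ereg, 13 to 61 for Btc and 11 to 44 for Epgn. The abundant members rested on far more, such as 7421 to 12245 reads for Egfr and 985 to 2579 for Nrg1.

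**Figure D1:**
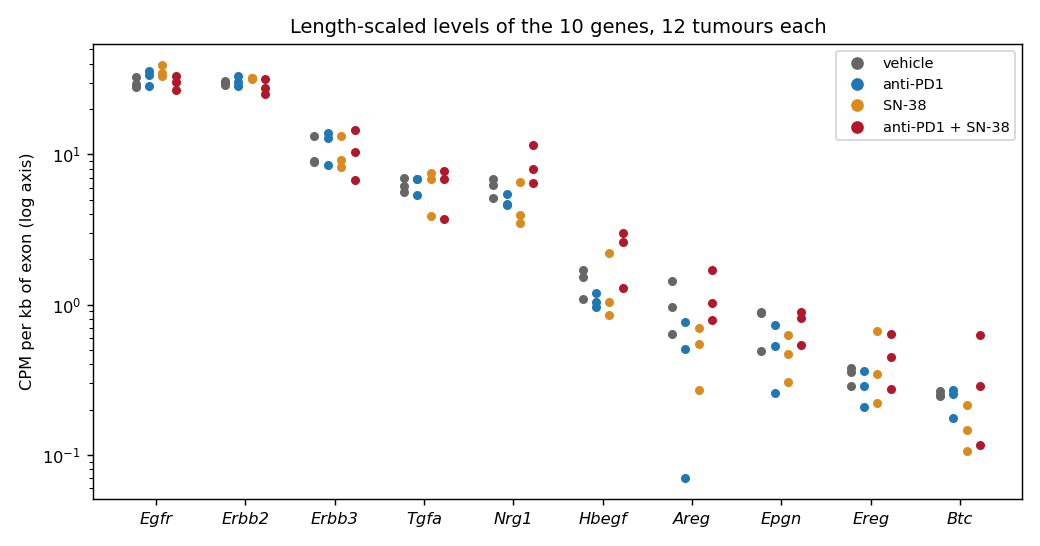
Level of each of the 10 genes in CPM per kilobase of exonic length (y axis, log scale) in each of the 12 tumours, coloured by group and ordered by mean. Egfr and Erbb2 lie above 25 CPM per kb in all tumours, while Areg, Epgn, Ereg and Btc stay below 1.7 CPM per kb.

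The family's remaining genes were low or had no counts. Erbb4, the other neuregulin receptor, and Nrg3, one of its ligands, had 0 counts in all 12 tumours, which allows levels of up to 0.105 to 0.142 CPM (3 counts of each tumour's total, counting error only). Nrg4 was at 0.03 to 0.14 CPM and Egf, the founding ligand of the family, at 1.70 to 3.06 CPM. Nrg2, a neuregulin like Nrg1, was at 1.87 to 4.08 CPM in 11 tumours and at 10.9 CPM in tumour 2 of the combination.

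No gene of the family passed the test in any of the 8 comparisons (edgeR quasi-likelihood test with Benjamini-Hochberg adjustment over all tested genes, threshold 0.05). The background was almost as empty. The share of all genes called was 0% in 7 comparisons and 0.00594%, a single gene, for SN-38 against vehicle. DESeq2 called none of the 10 either, although it left the adjusted p of several empty, such as those of Areg, Ereg, Hbegf, Btc and Epgn in the interaction. It called 0.166% of all genes for anti-PD1 against vehicle, 0.986% for SN-38 against vehicle, 1.03% for the combination against vehicle, 0.451% for the combination against anti-PD1 and 0.297% for the combination against SN-38. For SN-38 averaged, anti-PD1 averaged and the interaction the shares were 1.19%, 0.0832% and 0.143%. The fold changes that follow are therefore values that did not pass. At an unadjusted p under 0.05, 0 of the 10 genes stood out in anti-PD1 against vehicle (5.60% of all genes), SN-38 against vehicle (10%), the combination against vehicle (12.9%), SN-38 averaged over both antibody states (10.5%) or anti-PD1 averaged over both SN-38 states (6.67%). There were 2 of 10 in the combination against anti-PD1 (7.96% of all genes), 2 of 10 in the combination against SN-38 (7.92%) and 4 of 10 in the interaction (7.63%). The interaction is the anti-PD1 effect in SN-38-treated tumours minus that in tumours without SN-38. The last count ran from 1 (without vehicle tumour 3) to 5 (without vehicle tumour 1 or combination tumour 1) when a tumour was left out. The 2 counts of 2 ran from 1 to 5 and from 1 to 4. Both were 1 without combination tumour 2, the second also without SN-38 tumour 2, and both were highest without combination tumour 1. The counts of 0 moved too. With a tumour left out, the unadjusted edgeR p against vehicle reached 0.00983 for Nrg1 with SN-38, 0.0307 for Areg with anti-PD1 and 0.0221 for Hbegf with the combination. In the averaged effects it reached 0.0214 for Hbegf with SN-38 and 0.0117 for Nrg1 with anti-PD1. DESeq2 had 1 member at an unadjusted p under 0.05 in SN-38 against vehicle. Most of the comparisons share groups with others, so they are not separate pieces of evidence.

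**Figure D2:**
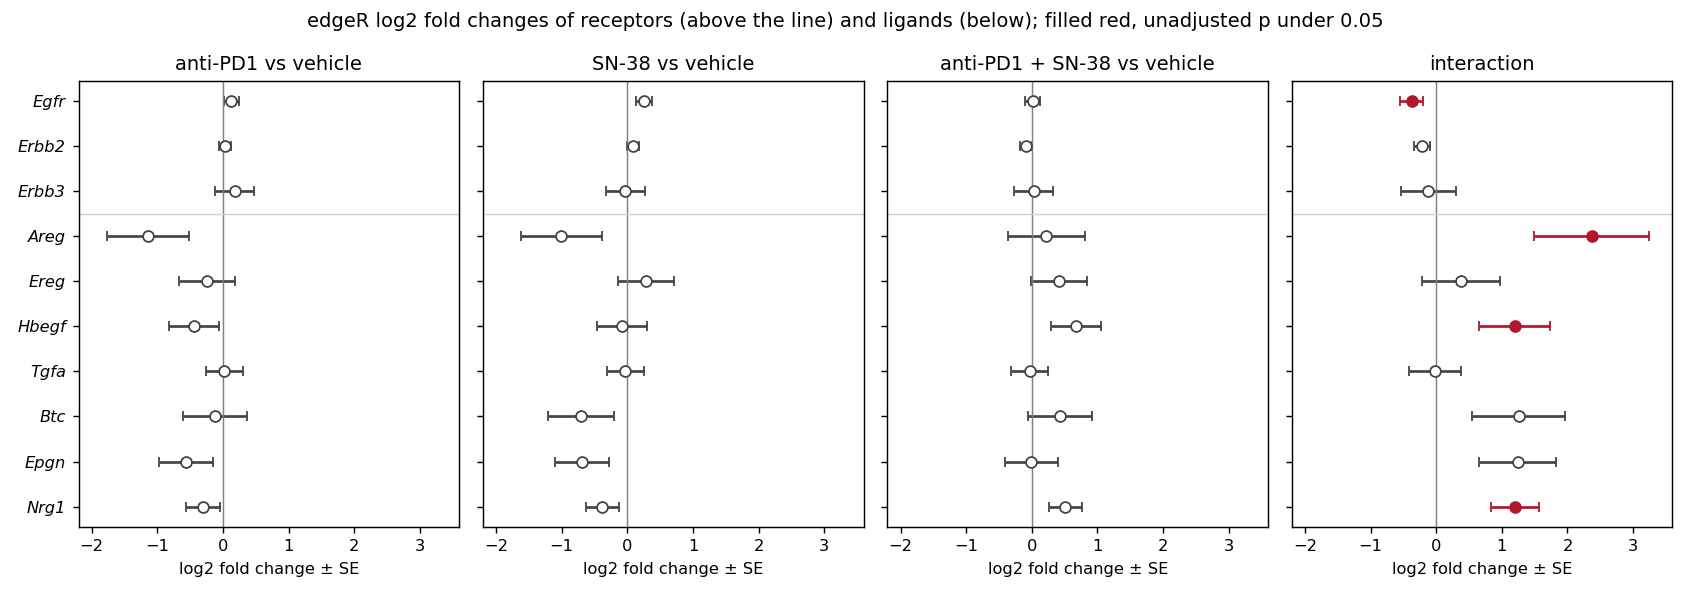
Log2 fold change (x axis) with its standard error for each of the 10 genes, in 4 panels for anti-PD1, SN-38 and the combination, each against vehicle, and for the interaction, with filled red points at an unadjusted p under 0.05. The filled points are Egfr, at -0.38, and Areg, Hbegf and Nrg1, at 2.37, 1.20 and 1.20, all in the interaction, and none passed the adjusted threshold.

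Egfr, the receptor that binds most of these ligands, was at 368, 317 and 333 CPM in the vehicle tumours and at 405, 385 and 323 CPM with anti-PD1. It was at 394, 448 and 375 CPM with SN-38 and at 378, 343 and 304 CPM with the combination. The SN-38 tumours were all above the vehicle tumours, while the combination overlapped every other group. An exact test of 3 tumours against 3 cannot go below 0.1 even where no values overlap. How many of all genes separated in this way was not counted, here or for the genes below. The log2 fold change was 0.26 ± 0.12 (SE) for SN-38 against vehicle, 0.13 ± 0.12 for anti-PD1 against vehicle and 0.01 ± 0.12 for the combination against vehicle, values chosen after they were seen. The interaction was -0.38 ± 0.17 (edgeR adjusted p = 0.653), just inside an unadjusted 0.05. Egfros, an antisense gene that shares no exonic base with Egfr, was at 2.20 to 8.28 CPM. Averaged over the other treatment, Egfr differed by 0.07 ± 0.08 with SN-38 and by -0.06 ± 0.08 with anti-PD1.

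Erbb2 was the steadiest gene of the family. It was at 152, 160 and 156 CPM with vehicle, 158, 173 and 149 CPM with anti-PD1, 167.1, 164.7 and 167.2 CPM with SN-38, and 165, 143 and 131 CPM with the combination. The 3 SN-38 tumours lay close to each other and above all vehicle tumours. The averaged effects were -0.02 ± 0.06 for SN-38 and -0.07 ± 0.06 for anti-PD1 on the log2 scale, and the adjusted p values were 0.952 and 0.846 (edgeR). Mien1, which shares 9 exonic bases with Erbb2 on the opposite strand, was at 20.8 to 29.9 CPM.

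Erbb3, the neuregulin receptor, varied more between tumours of a group than between groups. Its values were 54.6, 79.8 and 53.2 CPM with vehicle, 83.5, 77.2 and 51.4 CPM with anti-PD1, 79.6, 49.4 and 54.8 CPM with SN-38, and 87.9, 62.4 and 40.7 CPM with the combination. All groups overlapped. The averaged effects were -0.09 ± 0.21 for SN-38 and 0.12 ± 0.21 for anti-PD1 on the log2 scale.

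**Figure D3:**
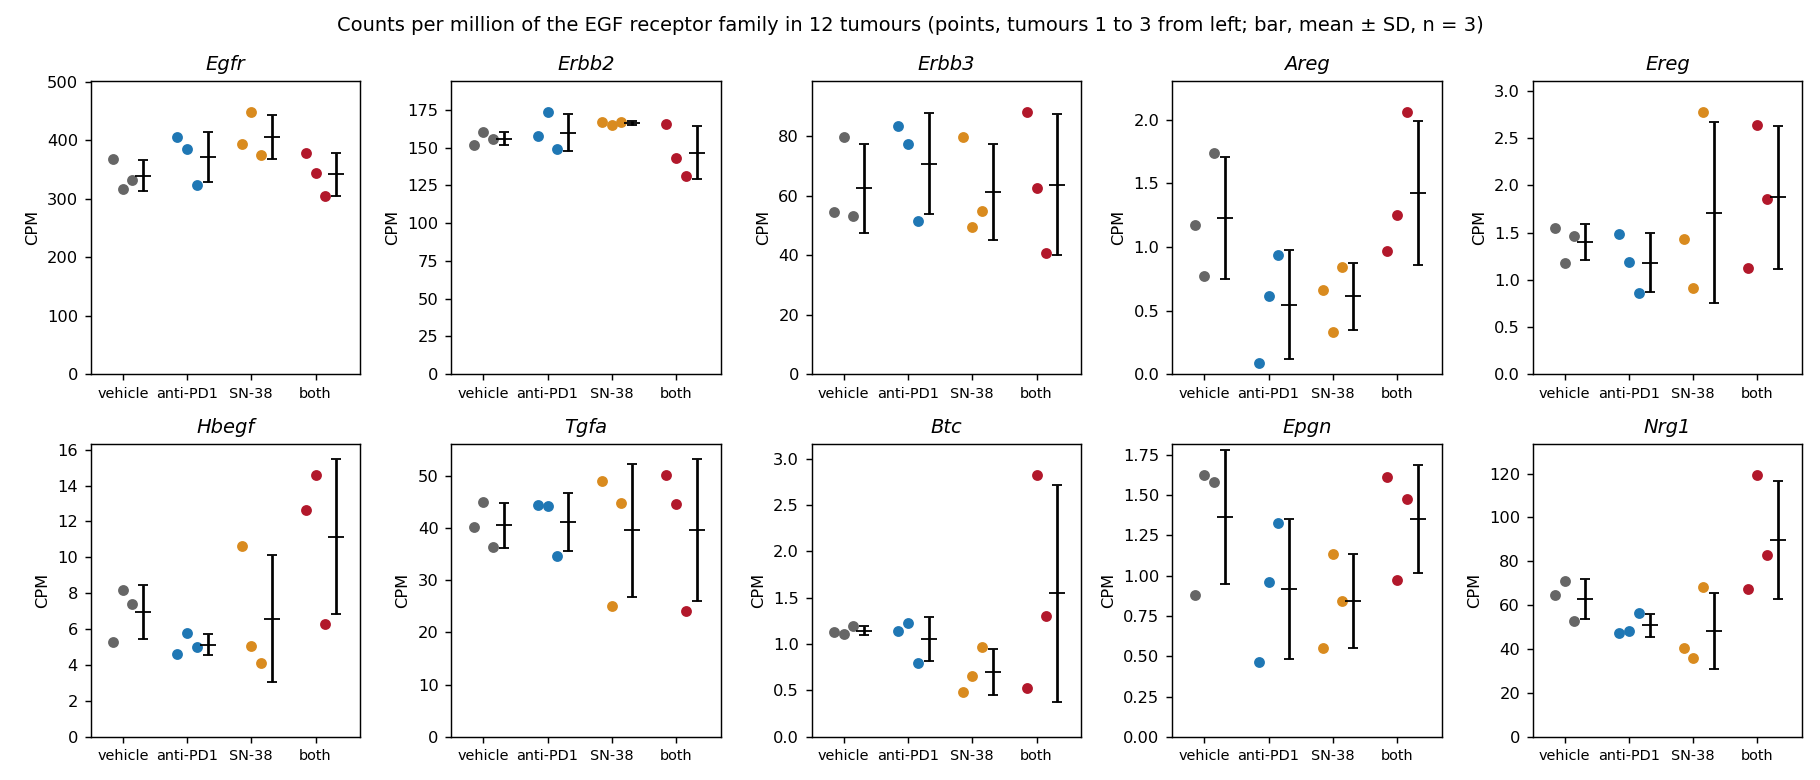
Level in CPM (y axis, from 0) of each of the 10 genes in each tumour by treatment group ("both" is the combination), as points for tumours 1 to 3 from the left, with the mean and SD of the group beside them. Nrg1, Hbegf, Areg, Btc, Erbb3 and Tgfa have their highest value in a tumour of the combination, and Egfr and Ereg in the SN-38 group.

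Nrg1, the neuregulin that binds ERBB3, had the smallest unadjusted p of the family between the combination and each single agent. It was at 64.8, 71.0 and 52.9 CPM with vehicle, 47.4, 48.2 and 56.6 CPM with anti-PD1, 40.6, 36.0 and 68.3 CPM with SN-38, and 67.2, 119 and 82.7 CPM with the combination. Every combination tumour was above every anti-PD1 tumour, while 1 SN-38 tumour lay above the lowest combination tumour. The group means were 62.9 ± 9.17, 50.8 ± 5.10, 48.3 ± 17.4 and 89.8 ± 26.8 CPM (SD, 3 tumours each) in the same order. The combination differed from anti-PD1 by 0.82 ± 0.26 on the log2 scale (edgeR adjusted p = 0.520) and from SN-38 by 0.89 ± 0.26 (edgeR adjusted p = 0.618). Without tumour 2 of the combination these differences were 0.56 and 0.63. The interaction was 1.20 ± 0.36 (edgeR adjusted p = 0.597), and 0.94 without tumour 2 of the combination. With each tumour left out in turn, it stayed between 0.94 and 1.54, at an unadjusted edgeR p of at most 0.0199. Averaged over the other treatment, Nrg1 differed by 0.22 ± 0.18 with SN-38 and by 0.29 ± 0.18 with anti-PD1, neither past the threshold, and by 0.09 and 0.16 without that tumour.

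Values beside the Nrg1 result show what else moved in its highest tumour. Summed Schwann cell markers, from a cell type known to use neuregulin, were at 64.1 CPM in tumour 2 of the combination and at 6.90 to 29.9 CPM in the others, with 4 of the 6 markers tested. That sum came mostly from S100b, which was at 48.3 CPM there, at 19.0 CPM in SN-38 tumour 3 and at no more than 2.50 CPM in the rest. The defining markers Sox10 (0 to 0.443 CPM) and Foxd3 (0 to 0.0463 CPM) were at or near 0 in all 12 tumours. Gm26578, on the opposite strand with 482 exonic bases shared with Nrg1, was at 1.34 to 3.24 CPM, highest in the same tumour. The strand setting of the count is unknown, so reads of the shared bases cannot be told apart. Nrg2 also had its highest value in this tumour, and its interaction was 1.60 ± 0.62 on the log2 scale (edgeR adjusted p = 0.633). Without this tumour it was 0.87 ± 0.43 and no longer at an unadjusted p under 0.05.

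Hbegf, on the minus strand of chromosome 18 (GRCm38, 36504927 to 36515805), encodes the heparin-binding ligand of EGFR. It was at 5.29, 8.19 and 7.41 CPM with vehicle, 4.63, 5.79 and 5.0 CPM with anti-PD1, 10.6, 5.05 and 4.10 CPM with SN-38, and 12.6, 14.6 and 6.28 CPM with the combination. All combination tumours were above all anti-PD1 tumours, by 1.11 ± 0.38 on the log2 scale (edgeR adjusted p = 0.558). Without tumour 2 of the combination this was 0.88 and no longer at an unadjusted p under 0.05. Its interaction was 1.20 ± 0.54 (edgeR adjusted p = 0.653), at an unadjusted p just inside the threshold, and 0.96, outside it, without that tumour. The SN-38 group was split, with 1 tumour at 10.6 CPM and the other two near 4 to 5 CPM. Summed neutrophil markers were highest in that same SN-38 tumour 1 (138.0 CPM) and next in tumour 2 of the combination (115.4 CPM), against 11.6 to 56.0 CPM in the rest. Of that list, 6 of 8 markers were tested. S100a9 was at 45.3 and 35.3 CPM in these 2 tumours and at no more than 5.16 CPM elsewhere, and Csf3r was at 31.7 and 29.8 CPM against 5.62 to 24.0 CPM. Ly6g stayed at 0 to 0.221 CPM in all 12. Combination tumour 1, where Hbegf was higher than in SN-38 tumour 1, had a neutrophil sum of 31.3 CPM. The part of neutrophils in the Hbegf values was not tested. Averaged over antibody status, Hbegf differed by 0.52 ± 0.27 with SN-38, and averaged over SN-38 status by 0.16 ± 0.27 with anti-PD1 (0.40 and 0.04 without tumour 2 of the combination).

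Areg, which encodes amphiregulin, was near the lower limit of the count. It was at 1.18, 0.78 and 1.74 CPM with vehicle, 0.08, 0.61 and 0.93 CPM with anti-PD1, 0.66, 0.33 and 0.84 CPM with SN-38, and 0.97, 1.25 and 2.06 CPM with the combination. The combination tumours were all above the tumours of both single-agent groups and overlapped the vehicle tumours. The lowest value, of anti-PD1 tumour 1, came from 2 reads. Areg had the largest interaction of the family, 2.37 ± 0.88 on the log2 scale (edgeR adjusted p = 0.633), which was 1.88 without that tumour. Its averaged effects were 0.18 ± 0.44 for SN-38 and 0.04 ± 0.44 for anti-PD1.

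Btc and Epgn, further ligands of EGFR, were also lowest on average with single agents, at few reads. Btc was at 1.13, 1.11 and 1.20 CPM with vehicle, 1.15, 1.23 and 0.79 CPM with anti-PD1, 0.48, 0.66 and 0.96 CPM with SN-38, and 0.52, 2.82 and 1.30 CPM with the combination. The vehicle tumours were all above the SN-38 tumours, and the combination group took its mean from tumour 2. Btc differed by 1.13 ± 0.50 on the log2 scale between the combination and SN-38 (edgeR adjusted p = 0.625), and by 0.40 without tumour 2 of the combination. Epgn was at 0.88, 1.62 and 1.58 CPM with vehicle, 0.47, 0.96 and 1.33 CPM with anti-PD1, 0.55, 1.13 and 0.84 CPM with SN-38, and 1.61, 0.97 and 1.48 CPM with the combination, with all groups overlapping. The averaged effects were -0.08 ± 0.35 for Btc and -0.07 ± 0.29 for Epgn with SN-38, and 0.51 ± 0.35 and 0.06 ± 0.29 with anti-PD1. Without tumour 2 of the combination, Btc was at -0.45 with SN-38 and 0.14 with anti-PD1.

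Ereg and Tgfa followed neither pattern. Ereg, which encodes epiregulin, was at 1.55, 1.18 and 1.47 CPM with vehicle, 1.49, 1.19 and 0.86 CPM with anti-PD1, 1.44, 0.91 and 2.77 CPM with SN-38, and 1.13, 2.64 and 1.85 CPM with the combination, all overlapping. Gm19610, which shares 141 exonic bases with Ereg on the opposite strand, was at 0.11 to 1.05 CPM, so part of the Ereg value cannot be told apart from it. The averaged effects of Ereg were 0.47 ± 0.30 for SN-38 and -0.06 ± 0.30 for anti-PD1 on the log2 scale. Tgfa was at 40.1, 45.0 and 36.4 CPM with vehicle, 44.4, 44.3 and 34.7 CPM with anti-PD1, 48.9, 25.0 and 44.7 CPM with SN-38, and 50.1, 44.5 and 24.2 CPM with the combination. Its group means differed by less than the spread within groups, and its averaged effects were -0.04 ± 0.20 and 0.01 ± 0.20 for SN-38 and anti-PD1.

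Counted by sign, the 7 ligands were 1 higher and 6 lower with anti-PD1 against vehicle (median log2 fold change -0.31) and likewise 1 higher and 6 lower with SN-38 against vehicle (median -0.38). The combination was above vehicle for 5 and below it for 2 (median 0.42, and 0.17 with the same split when combination tumour 2 was left out). Over all genes tested, the medians in these comparisons were 0.01, 0.01 and 0.01, and 51.6%, 51.2% and 51.6% were higher. In the interaction 48.2% of all genes were positive. In the interaction, 6 ligands were positive and 1 negative with a median of 1.20 (0.94 without combination tumour 2), and the 3 receptors were all negative with a median of -0.22, against -0.01 over all genes. The ligands share tumours and a reference group, so these counts describe the list and carry no test.

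Genes of ligand release and signal transduction had medians close to 0. Of 8 sheddases, a protease inhibitor, trafficking proteins and a convertase of the ligand precursors, 0 passed the threshold of edgeR or DESeq2, and the interaction had 4 positive and 4 negative values (median -0.04), 0 of them at an unadjusted p under 0.05. The smallest p in the positive direction went with 0.15 ± 0.06 for Rhbdf2 with anti-PD1 (edgeR adjusted p = 0.732) and 0.09 ± 0.06 for Rhbdf1 with SN-38. Adam12, a sheddase, had larger values with wide errors, -0.60 ± 0.50 with anti-PD1 and -0.36 ± 0.49 with SN-38. Rhbdf1 and Rhbdf2 encode inactive rhomboid proteins that carry the sheddase ADAM17 to the cell surface. Of 22 transducers, 0 passed with edgeR, and 10 interaction values were positive and 12 negative (median -0.02). At an unadjusted p under 0.05 there were 3 of the 22, beside 7.63% of all genes. DESeq2 called Braf, a RAF kinase, in SN-38 against vehicle (log2 fold change 0.48 ± 0.12, adjusted p = 0.00649) and in anti-PD1 against vehicle (0.44 ± 0.12, adjusted p = 0.0486), and Hras in SN-38 against vehicle. Averaged over both antibody states, Hras, a RAS GTPase, differed with SN-38 by -0.20 ± 0.06 (edgeR adjusted p = 0.363) and Plcg1, a phospholipase bound by the receptors, by 0.17 ± 0.07 (edgeR adjusted p = 0.419).

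Among inhibitors of the receptors themselves, Cblb had the clearest difference of any pathway gene. Cblb encodes a ubiquitin ligase that marks active receptors for degradation and is also known as a brake on T-cell activation. It was at 88.5, 85.5 and 68.0 CPM with vehicle, 171, 144 and 136 CPM with anti-PD1, 126, 149 and 127 CPM with SN-38, and 119, 92.4 and 110 CPM with the combination. The tumours of all 3 treated groups were above all vehicle tumours, and the combination tumours were below both single-agent groups. The log2 fold change was 0.90 ± 0.14 for anti-PD1 against vehicle (edgeR adjusted p = 0.703, DESeq2 adjusted p = 2.33e-05) and 0.73 ± 0.14 for SN-38 against vehicle (edgeR adjusted p = 0.280, DESeq2 adjusted p = 0.000747). The interaction was -1.22 ± 0.19 (edgeR adjusted p = 0.313, DESeq2 adjusted p = 2.81e-05). The call therefore depended on the tool, and Cblb in these comparisons was picked after its values were seen. Averaged over both SN-38 states, it differed by 0.29 ± 0.10 with anti-PD1 (edgeR adjusted p = 0.732). Summed T-cell markers were at 67.2 to 82.6 CPM with vehicle, 72.4 to 180.5 CPM with anti-PD1, 60.6 to 85.1 CPM with SN-38 and 73.2 to 215.7 CPM with the combination, and their part in the Cblb values was not tested.

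Of the 11 genes tested that were listed as receptor inhibitors, 8 were higher and 3 lower with SN-38 against vehicle (median 0.17). Over all genes tested, 51.2% were higher. Of the 11, 4 were at an unadjusted p under 0.05 (10% of all genes) and 0 past the threshold of edgeR. DESeq2 called 3 of them there, Cblb, Lrig2 and Lrig3, beside 0.986% of all genes. Lrig2 and Lrig3 are listed beside their relative Lrig1, and their action on these receptors was not measured. The 3 lower genes were Errfi1 (-0.37 ± 0.19), Lrig1 (-0.28 ± 0.37) and Ptpn1 (-0.04 ± 0.13), none of them called. In the interaction 2 of the 11 were positive and 9 negative (median -0.25), 3 of them at an unadjusted p under 0.05 (7.63% of all genes). Over all genes tested, 48.2% of interaction values were positive. Lrig3, of a family of membrane proteins whose member LRIG1 restrains EGFR, was at 94.4, 107 and 96.9 CPM with vehicle and at 153, 125 and 143 CPM with SN-38, which did not overlap. Over both antibody states, SN-38 gave a log2 difference of 0.29 ± 0.08 for Lrig3 (edgeR adjusted p = 0.301).

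The feedback inhibitors that MAP kinase signalling switches on had higher values in the combination, most of all in 1 tumour. Of the 8 Sprouty, Spred and Dusp genes tested, 7 were above vehicle in the combination and 1 below (median log2 fold change 0.59). Over all genes tested, 51.6% were above. At an unadjusted p under 0.05 there were 4 of the 8 (12.9% of all genes), and 0 after adjustment by edgeR or DESeq2. Without tumour 2 of the combination, 5 were above and 3 below (median 0.28), and 1 of 8, Dusp4, was at an unadjusted p under 0.05. Their summed level was 1011 CPM in that tumour, 635.1 CPM in SN-38 tumour 3 and 380.4 to 504.5 CPM in the other 10. Spry1, a Sprouty inhibitor of receptor signalling, was at 411 CPM there and at 75.0 to 179 CPM elsewhere. Dusp4, an ERK phosphatase, was at 6.04, 5.83 and 5.86 CPM with vehicle and at 9.67, 17.5 and 9.71 CPM with the combination, which did not overlap. Its log2 fold change was 1.05 ± 0.31 (edgeR adjusted p = 0.296), and 0.71 ± 0.29 without tumour 2.

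**Figure D4:**
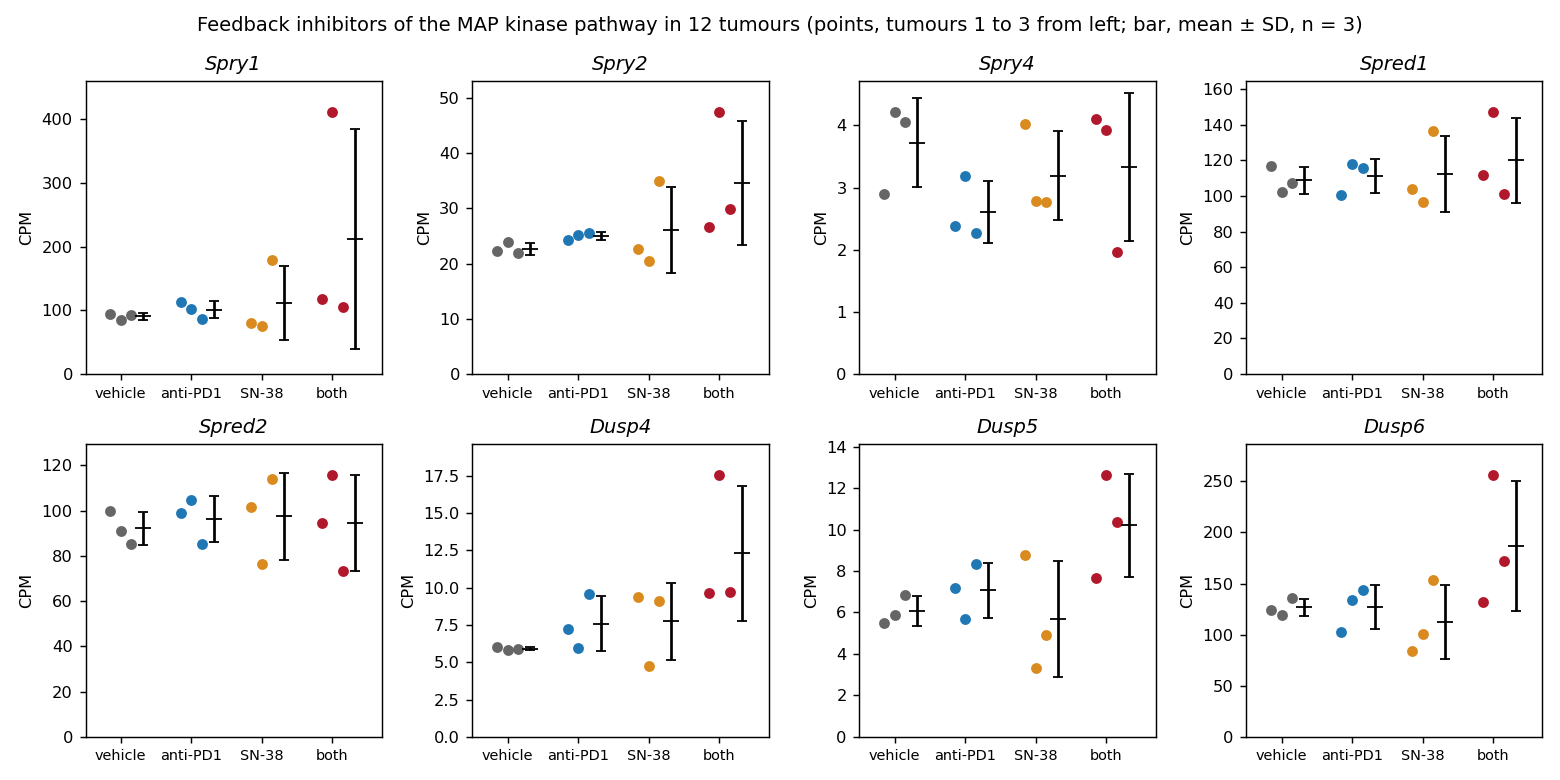
Level in CPM (y axis, from 0) of the 8 feedback inhibitors in each tumour by group ("both" is the combination), as points for tumours 1 to 3 from the left, with the mean and SD of the group beside them. Tumour 2 of the combination is the highest for Spry1, at 411 CPM, and for Dusp4, at 17.5 CPM.

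Genes induced by ERK signalling had mostly positive interaction values. All 13 were positive with every tumour in the fit (median 0.49), against 48.2% of all genes tested. Of the 13, 2 were at an unadjusted p under 0.05 (7.63% of all genes) and 0 past the threshold. Without tumour 2 of the combination, 11 were positive and 2 negative (median 0.44). Fosl1, an AP-1 subunit, was at 2.81, 3.84 and 3.94 CPM with vehicle, 1.10, 2.80 and 2.48 CPM with anti-PD1, 3.17, 1.32 and 2.41 CPM with SN-38, and 5.0, 4.03 and 4.39 CPM with the combination, above every other tumour. Its interaction was 1.68 ± 0.52 (edgeR adjusted p = 0.597), and that of Myc, a growth transcription factor, was 0.60 ± 0.18 (edgeR adjusted p = 0.597). With single agents, 12 of the 13 were below vehicle with anti-PD1 (median -0.16) and 9 of 13 with SN-38 (median -0.28). The combination was above vehicle for 8 of the 13 and below it for 5 (median 0.06). Over all genes tested, 51.6%, 51.2% and 51.6% were above vehicle with anti-PD1, SN-38 and the combination. The 13 genes share tumours and a reference group, so these counts carry no test. Without tumour 2 of the combination, 6 were above vehicle and 7 below (median -0.005). Egr1, an immediate early transcription factor, differed by -0.47 ± 0.13 with SN-38 over both antibody states (edgeR adjusted p = 0.290).

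Within the family, Erbb3 and Tgfa varied together from tumour to tumour. Over 12 tumours, log2 CPM of the pair had a Pearson r of 0.83 and a Spearman rho of 0.88 (permutation p = 4e-05 and 0.00033; adjusted over 45 pairs of family genes, 0.0018 and 0.0149). Without combination tumours 1 and 3, which lay farthest from the median of Erbb3, r was 0.72. Around the group means, r was 0.84, so the pair varied within groups. The lowest values of both were in combination tumour 3, where summed macrophage markers (1006 CPM) and T-cell markers (215.7 CPM) were the highest of all tumours. SN-38 tumour 2, second lowest for both genes, had the highest fibroblast sum, 65870 CPM. The part of these cell types in the relation was not tested. No other pair had an adjusted Pearson p under 0.05. Egfr and Nrg1 had an r of -0.65 (permutation adjusted p = 0.163), and Egfr and Areg an r of -0.72 (permutation adjusted p = 0.155).

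**Figure D5:**
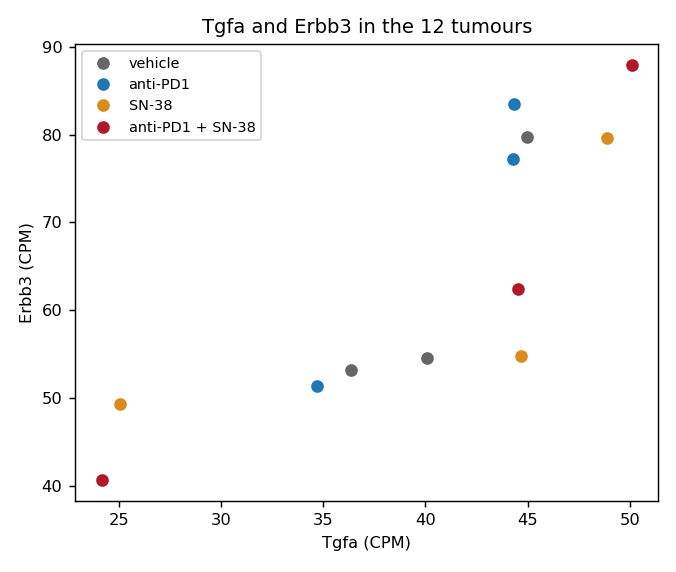
Erbb3 (y axis, CPM) against Tgfa (x axis, CPM) in each of the 12 tumours, coloured by group, on axes that do not start at 0. The groups overlap in both genes, with combination tumour 3 lowest (40.7 CPM of Erbb3, 24.2 CPM of Tgfa) and combination tumour 1 highest (87.9 and 50.1 CPM).

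The genes most like each member in pattern were sought among 12966 genes over the 12 tumours, as a description in which every gene shares the same libraries and the closest of many is reported. Nrg1 was nearest to Pdss1 (r = 0.92), Rmi2 (0.91) and Fbxl2 (0.91). Egfr was nearest to 2610008E11Rik (0.93), Zkscan8 (0.90) and Rev3l (0.88). Erbb2 was nearest to Notch3 (0.95), a receptor of the Notch family, then Tspan9 (0.93) and Pof1b (0.92). Erbb3 was nearest to Pfkl (0.95) and Tgfa to Nxph4 (0.95) and Tpi1 (0.95), where Pfkl and Tpi1 encode glycolytic enzymes. Hbegf was nearest to Plvap (0.91), a gene of endothelial cells, then Col18a1 (0.90) and Uaca (0.88). The endothelial markers as a list summed to 115.5 to 185.1 CPM and were highest in tumour 2 of the combination, where Hbegf was highest too. Areg was nearest to Rhoc (0.90), Cxxc5 (0.88) and Fosl1 (0.85), and Fosl1 is also a member of the ERK-induced list. Among the low ligands, Ereg was nearest to Stxbp6 (0.94), Btc to Gm7488 (0.93) and Epgn to Fam110a (0.93).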

How the data were processed

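Poly(A) RNA libraries of 12 tumours were made with a TruSeq stranded kit, per the labels' protocols. The submitters' processing notes name cutadapt 2.4, STAR 2.7.2a and GRCm38. Counting program and strand setting are not given in the sources used here. Values as deposited are raw counts per gene in whole numbers. Of 54446 identifiers, 54409 matched GENCODE release M21, which gave symbols, positions and exonic length. Counts were filtered with edgeR's filterByExpr and scaled with TMM factors (0.970 to 1.03), which left 16833 genes with at least 99.9% of each tumour's counts. CPM are counts scaled to these sizes.

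Groups were compared by quasi-likelihood in edgeR (version 4.0.16, under R 4.3.3) on all 12 tumours with a mean per group, over 8 comparisons, with p adjusted (Benjamini-Hochberg) over all genes tested, at 0.05. The SE of an edgeR log2 fold change was not fitted directly. It is the absolute fold change on the log2 scale divided by the square root of the quasi-likelihood F statistic. Log2 values used a prior count of 2 where tumours were correlated, and pairs were permuted 100000 times, two-sided. Pairs of tumours of a group differed beyond counting noise (chi-square of at least 11.8 per degree of freedom). For 3 tumours against 3, an exact test cannot go below 0.1. The test was tried on simulated data. Alternatives used DESeq2 1.42.0, limma 3.58.1, other scalings, no filter on low counts, a replicate block and each tumour left out. The members and gene lists were chosen with earlier results of these data known.

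All 10 members were named. Fold changes were printed for the averaged effects, and for other comparisons where the unadjusted p was under 0.05 or where said to be chosen after the values were seen. Of each pathway list, the gene with the smallest p in each direction of each averaged effect was eligible to be named. Spry1, Fosl1, Myc, Braf, Lrig3, Cblb, Adam12, Nrg2, Errfi1, Lrig1 and Ptpn1 values in other comparisons were chosen after they were seen. So were S100b, Sox10, Foxd3, S100a9 and Csf3r.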

Additional observations from a re-analysis of the deposited data

How the results depend on the processing

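No member passed the adjusted threshold under any alternative that gave it an adjusted p (DESeq2 gave none for some members). Of 813 pairs of a member value and a setting, 760 kept their direction and 53 reversed, in 16 of 51 values. Counts of genes called over the whole table depended on the tool. DESeq2 called 28 genes for anti-PD1 against vehicle, 166 for SN-38 against vehicle, 173 for the combination against vehicle, 76 for the combination against anti-PD1, 50 for the combination against SN-38, 201 for SN-38 averaged, 14 for anti-PD1 averaged and 24 for the interaction. For SN-38 against vehicle, edgeR called 0 with no filter on low counts, with the replicate block, with a fit of just these 2 groups, and without any 1 of the 6 vehicle and SN-38 tumours (0 to 0). For the combination against anti-PD1 it called 1 with no filter and 0 to 1 with a tumour left out (1 without combination tumour 3). For SN-38 averaged it called 2 with upper-quartile factors, 3 with no filter, and 0 to 2 with a tumour left out (2 without combination tumour 1 or combination tumour 2). Of the 4 members at an unadjusted p under 0.05 in the interaction, 2 were left with RLE and 2 with upper-quartile factors. With a tumour left out the count ran from 1 (without vehicle tumour 3) to 5 (without vehicle tumour 1 or combination tumour 1), and was 2 without vehicle tumour 2, anti-PD1 tumour 1, anti-PD1 tumour 2 or combination tumour 3. For the combination against anti-PD1 the main count of 2 ran from 1 (without combination tumour 2) to 5 (without combination tumour 1). Against SN-38 the main count of 2 was 1 with limma voom and ran from 1 (without SN-38 tumour 2 or combination tumour 2) to 4 (without combination tumour 1). The cause of these shifts was not tested.

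The anti-PD1 averaged value of Areg was -0.131 with voom and -0.021 with the replicate block, and that of Tgfa -0.004 and -0.01. With a tumour left out, SN-38 averaged values ran from -0.066 to 0.019 for Erbb2, -0.245 to 0.029 for Erbb3, -0.063 to 0.487 for Areg, -0.15 to 0.084 for Tgfa, -0.452 to 0.121 for Btc and -0.225 to 0.107 for Epgn. Anti-PD1 averaged values ran from -0.038 to 0.236 for Erbb3, -0.277 to 0.282 for Areg, -0.218 to 0.208 for Ereg, -0.11 to 0.141 for Tgfa and -0.125 to 0.215 for Epgn. Interaction values ran from -0.429 to 0.119 for Erbb3 and -0.264 to 0.236 for Tgfa. Against vehicle, the combination ran from -0.07 to 0.087 for Egfr and -0.152 to 0.553 for Areg, and SN-38 from -0.607 to 0.166 for Hbegf. The results without tumour 2 of the combination for the ligand and pathway lists were added after the data were seen. Replicate numbers did not pair the tumours: deviations of same-numbered tumours from their group means correlated at -0.471 to 0.631 (median -0.0545), with 4 of 18 above 0.1. With the replicate block, 4 members stayed at an unadjusted p under 0.05 in the interaction. The few reads of Areg, Btc, Ereg and Epgn limit their precision.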
